A study of Homo sapiens with 16 samples.

Results

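The comparison of GCN2iB with vehicle in WT LNCaP cells used 8 of the 16 libraries of the study, 4 WT Vehicle and 4 WT GCN2iB, chosen by the genotype and treatment in their labels. LNCaP was derived from a human prostate carcinoma. Cells were kept in phenol red-free RPMI-1640 with 10% FBS, plated at 350000 per well, left to attach, and given DMSO vehicle or 5 µM GCN2iB for 48 h. The other 8 libraries, from p53 KO LNCaP cells made by CRISPR and treated in the same way, served to estimate the spread and for 1 comparison of the responses. Neither the clonal state of the p53 KO cells nor the origin of the replicates (separate cultures or repeats of 1) is labelled. The p-values therefore rest on the spread among libraries, which may be technical. The data hold 1 dose, 1 time and 1 inhibitor.

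GCN2, encoded by EIF2AK4, is a kinase that senses uncharged tRNA and phosphorylates the translation factor eIF2. Phosphorylated eIF2 slows general translation and favours translation of ATF4, a transcription factor that turns on genes for amino acid uptake, amino acid synthesis and tRNA charging. GCN2iB is an ATP-competitive inhibitor of the kinase. Mitotic genes follow another system, in which repressor and activator complexes bind a short element, the cell cycle genes homology region, near their start sites.

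Total counts of the 8 WT libraries ranged from 19670655 to 39671776. On principal component 1, which held 53.8% of the variance among them, the 4 vehicle libraries lay apart from the 4 GCN2iB libraries. WT Vehicle 1, the smallest WT library, stood apart on component 2 (17.10 against -15.72 to -3.82 in the other vehicle libraries). WT GCN2iB 4 lay partway toward the p53 KO cells: over 9 genes higher in p53 KO it covered 45.6% of the distance and over 21 genes lower there 10.1%, against -5.58% to 5.53% and -1.23% to 1.60% in the other WT GCN2iB libraries. These are medians over genes of a distance in log2 CPM, from other WT GCN2iB libraries to the mean of p53 KO GCN2iB. A share of this distance is not a share of RNA or cells. All 13 markers of LNCaP cells had over 10 counts in every WT library. Markers of other cells were mostly scarce: the sum over 11 markers of basal or PC-3-type prostate cells was 6.73 to 7.88 CPM under vehicle and 6.11 to 7.74 CPM under GCN2iB. The basal marker TP63 had 0 counts in all 8 libraries, but 4 of the 11 had over 10 counts in each, with KRT14 at 54 to 99. The sum over 19 fibroblast, endothelial and blood markers was 40.7 to 46.6 and 39.1 to 47.6 CPM. Of these 9 had at most 3 counts in any WT library and 4 had over 10 in every one. COL1A1 (20.4 CPM under vehicle and 16.4 under GCN2iB) and VWF (18.1 and 21.0) held most of this sum. CPM scale a gene's read count to library size.

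Of 18549 tested genes 2153 (11.6%) rose and 2524 (13.6%) fell at an adjusted p under 0.05. These shares are the background for the counts of this fit in the groups of genes below. Among the 13439 coding genes, to which most of these groups are limited, 13.4% rose and 16.4% fell. Counts from other fits have other backgrounds. The balance between rises and falls depended on the fit: 2341 rose and 2283 fell with DESeq2 size factors, and 3107 (17.6%) rose and 2587 (14.6%) fell with smooth trends on GC content and transcript length removed. With these trends removed 2832 of 13382 coding genes with a symbol rose and 2221 fell. Rises also outnumbered falls in each of the 8 fits that left out 1 library, with 1780 to 2306 higher and 1668 to 2199 lower. These fits tested 18802 to 18918 genes. In each of them fewer genes fell than in the full fit, and in most of them fewer rose. Counts of groups in these fits, given below, are to be read against these totals. Most changes were small. At least 2-fold changes were called for 113 genes higher (0.609%) and 111 lower (0.598%), of which 15 and 17 reached 5 CPM in the higher group. The median log2 ratio of all tested genes was -0.03. At 1.5-fold and at least 5 CPM, 126 genes fell, 30 of them in a list of 59 amino acid response genes, and 225 rose, 16 of them in lists of mitosis and DNA replication genes. The 4 GCN2iB libraries all lay below the 4 vehicle libraries for 14.1% of genes and all above for 11.9%. In bulk RNA, fewer cells of a state and less RNA per cell cannot be told apart.

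Promoters are shown first because the genes with the largest falls and the mitotic genes differed in how often they hold certain short motifs. Those printed were picked because they hold the motif in capitals, so they do not stand for all falls or rises. The windows run from 250 bases before to 50 after the start site (RefSeq, GRCh38.p14), and 12076 tested genes had one. Each is printed 5′ to 3′ on the gene's strand. The first 4 hold the CARE motif, the element bound by ATF4 with C/EBP partners, spelled TGATGNAA, in capitals. In CHAC1, CARS1 and GPX8 the match is on the other strand, so the capitals show its reverse complement. CHAC1 and CARS1 belong to the amino acid response, and DNASE2 and GPX8 fell as well but are not in that list.
CHAC1, chr15:40953221-40953520, plus strand: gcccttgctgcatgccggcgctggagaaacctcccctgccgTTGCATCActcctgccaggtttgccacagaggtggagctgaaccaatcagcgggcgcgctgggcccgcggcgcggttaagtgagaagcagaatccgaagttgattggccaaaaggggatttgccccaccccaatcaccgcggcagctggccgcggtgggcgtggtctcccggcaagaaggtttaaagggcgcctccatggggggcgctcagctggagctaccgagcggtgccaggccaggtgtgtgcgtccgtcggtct
CARS1, chr11:3057374-3057673, minus strand: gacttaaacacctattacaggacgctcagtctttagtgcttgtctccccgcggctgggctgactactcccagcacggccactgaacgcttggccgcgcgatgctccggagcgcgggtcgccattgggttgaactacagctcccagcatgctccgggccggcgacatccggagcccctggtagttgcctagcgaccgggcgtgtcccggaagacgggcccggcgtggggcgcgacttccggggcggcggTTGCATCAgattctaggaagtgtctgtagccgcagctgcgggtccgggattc
DNASE2, chr19:12881400-12881699, minus strand: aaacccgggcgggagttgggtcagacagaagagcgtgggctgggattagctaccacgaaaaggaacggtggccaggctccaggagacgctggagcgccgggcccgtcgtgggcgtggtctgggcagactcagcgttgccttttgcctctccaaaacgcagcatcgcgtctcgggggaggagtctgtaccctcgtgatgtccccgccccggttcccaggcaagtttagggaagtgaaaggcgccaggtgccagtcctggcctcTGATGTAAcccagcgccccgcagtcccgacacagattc
GPX8, chr5:55159921-55160220, plus strand: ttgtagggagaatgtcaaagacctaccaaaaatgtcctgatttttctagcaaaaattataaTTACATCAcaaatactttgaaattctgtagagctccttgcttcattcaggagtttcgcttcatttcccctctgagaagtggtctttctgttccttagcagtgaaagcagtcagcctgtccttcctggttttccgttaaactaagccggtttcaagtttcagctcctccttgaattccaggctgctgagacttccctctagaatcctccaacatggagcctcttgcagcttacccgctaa
The next 3 are from genes of mitosis and centromeres that rose. Capitals mark the cell cycle genes homology region (CHR), spelled TTTGAA, and the first match in CDC20 is likewise on the other strand.
CDC20, chr1:43358731-43359030, plus strand: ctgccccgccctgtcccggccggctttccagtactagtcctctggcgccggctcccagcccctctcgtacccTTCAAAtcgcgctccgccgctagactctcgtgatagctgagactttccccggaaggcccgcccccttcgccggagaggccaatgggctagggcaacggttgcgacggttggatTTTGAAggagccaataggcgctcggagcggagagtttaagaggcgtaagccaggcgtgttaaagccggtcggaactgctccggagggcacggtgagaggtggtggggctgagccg
KIF18B, chr17:44947724-44948023, minus strand: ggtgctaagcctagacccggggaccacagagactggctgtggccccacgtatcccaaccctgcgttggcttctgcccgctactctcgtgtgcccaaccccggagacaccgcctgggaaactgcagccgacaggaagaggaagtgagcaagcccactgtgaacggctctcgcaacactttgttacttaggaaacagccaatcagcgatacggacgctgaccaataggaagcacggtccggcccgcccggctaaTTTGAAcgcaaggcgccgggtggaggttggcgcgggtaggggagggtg
HJURP, chr2:233854486-233854785, minus strand: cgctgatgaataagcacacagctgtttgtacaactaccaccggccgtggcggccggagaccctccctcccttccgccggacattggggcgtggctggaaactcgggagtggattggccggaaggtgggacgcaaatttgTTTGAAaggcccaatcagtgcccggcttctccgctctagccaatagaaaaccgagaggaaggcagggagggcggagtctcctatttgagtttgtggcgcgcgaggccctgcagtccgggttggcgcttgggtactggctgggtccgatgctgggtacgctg

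Both strands were searched for each motif, and none of the spellings contains another. The CARE motif was in 1.71% of the 12076 promoters of tested genes, in 31.9% of 47 promoters of the amino acid response list, and in 11.2% of the 89 promoters of genes that fell at least 1.5-fold. Of the 15 largest falls 13 had a promoter window, and 3 of these (23.1%) held the motif. Among the 27 largest falls outside the list, 21 had a promoter window and 4 of these (19.0%) held the motif, those of GPX8, TMEM154, DNASE2 and LINC01133. Of 164 promoters of genes that rose at least 1.5-fold 1.22% held it, and of the 36 promoters of the mitosis list 8.33%. The CHR was in 9.69% of all tested promoters and in 61.1% of 36 promoters of the mitosis list. It was in 15.2% of those of genes that rose at least 1.5-fold and in 10.1% of those that fell as much. Among the 13 promoters of the 15 largest falls 2 (15.4%) held it. Of the 21 promoters of the largest falls outside the amino acid list 19.0% held it, GPX8 and TMEM154 among them. The motif CCAAT was in 36.6% of all tested promoters, 75.0% of those of the mitosis list and 53.2% of those of the amino acid response list. The 1.5-fold rises and 1.5-fold falls held it alike, at 46.3% and 46.1%. The E2F motif, TTNGCGC, was in 12.5% of all tested promoters, 19.5% of the 1.5-fold rises and 10.1% of the 1.5-fold falls. The cyclic AMP response element, TGACGTCA, and the E-box, CACGTG, were in 3.13% and 9.90% of all tested promoters. The lists were chosen with results of these data known, so the shares describe them. The amino acid response list is a list of ATF4 targets, and the mitosis list one of mitotic genes. High shares of CARE in the first and of CHR in the second therefore go with how the lists were drawn up and are no separate result. A match is a run of letters, not a shown binding site.

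**Figure D1:**
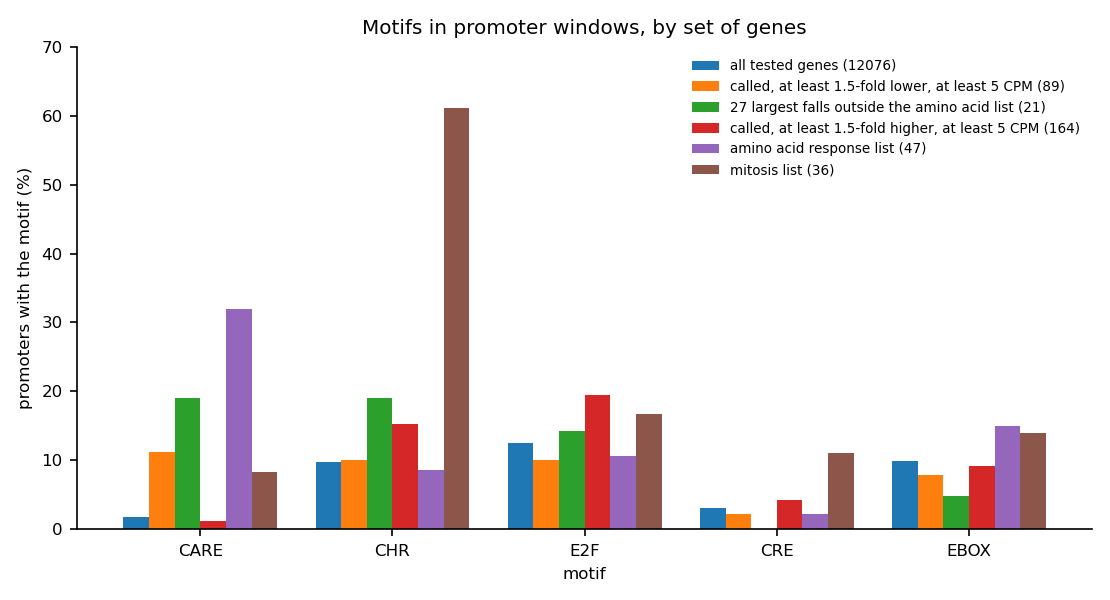
Share of promoter windows (%) that hold each of 5 motifs, for all tested genes and for 5 sets of genes, with the number of promoters in each set in the key. CARE stands highest in the amino acid response list (31.9%) and CHR in the mitosis list (61.1%), against 1.71% and 9.69% of all tested promoters. These are lists of ATF4 targets and of mitotic genes, so both peaks go with how the lists were drawn up.

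The largest falls were led by the amino acid response. CHAC1, an enzyme that degrades glutathione (ENSG00000128965, GRCh38 chromosome 15, 40952962 to 40956519), stood at 17.5, 21.6, 20.4 and 20.6 CPM in the vehicle libraries and at 1.92, 1.65, 2.06 and 2.71 CPM in the GCN2iB libraries. It fell 9.52-fold (log2 -3.25, SE 0.14, adjusted p = 7.61e-14 by edgeR's quasi-likelihood test). The 15 largest falls also held SLC7A5, SLC7A11, SLC6A9, SLC1A5 and SLC1A4, carriers of amino acids, the tRNA synthetases GARS1 and CARS1, the secreted peptide ADM2, PCK2 and ATF4 itself. Of the 59 list genes 52 fell and 0 rose (median log2 -0.62), a list drawn up from earlier results of these data.

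FGF21, a secreted hormone of nutrient stress, had the largest fitted fall of any gene with a symbol, but it was scarce. It belongs to the amino acid response list. It stood at 0.810, 0.501, 0.467 and 0.442 CPM under vehicle and 0.0310, 0, 0.0642 and 0.0260 CPM under GCN2iB (adjusted p = 2.57e-05), and it is named after its values were seen. The GCN2iB values amount to a few counts in all, so the size of its fall is poorly known.

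4 of the 15 largest falls lay outside the amino acid response list. BEST1, which encodes a calcium-activated chloride channel best known from the retinal pigment epithelium (ENSG00000167995, GRCh38 chromosome 11, 61949821 to 61965515), stood at 7.49, 9.58, 7.76 and 9.32 CPM under vehicle and 1.55, 2.02, 2.76 and 2.84 CPM under GCN2iB. Every GCN2iB value was below every vehicle value, and the fall was 3.72-fold (log2 -1.89, SE 0.14, adjusted p = 2.01e-09). LINC01133, a long noncoding RNA (ENSG00000224259, GRCh38 chromosome 1, 159961218 to 159984750), stood at 6.88, 7.66, 8.04 and 7.77 CPM and 2.36, 2.18, 2.41 and 1.74 CPM. It fell 3.52-fold (log2 -1.81, SE 0.12, adjusted p = 7.40e-10). NIBAN1, a stress-induced protein (ENSG00000135842, GRCh38 chromosome 1, 184790724 to 184974550), fell from 6.02 ± 0.840 to 1.83 ± 0.181 CPM (mean ± SD, n = 4 in each group; log2 -1.72, adjusted p = 2.02e-07). STYXL2, a phosphatase-like protein (ENSG00000198842, GRCh38 chromosome 1, 167094045 to 167129165), fell from 9.18 ± 0.699 to 3.10 ± 0.662 CPM (log2 -1.56, adjusted p = 1.29e-08).

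The 27 largest falls outside the list were chosen after the values were seen, so they are described 1 by 1 and stand for no function. GPX8, a peroxidase of the endoplasmic reticulum (ER), was at 14.6, 14.6, 14.1 and 14.5 CPM under vehicle and 7.14, 5.41, 5.81 and 7.88 CPM under GCN2iB, a fall of 2.19-fold (log2 -1.13, SE 0.10, adjusted p = 1.98e-08). The groups did not overlap, and the vehicle libraries lay close together. CCPG1, a receptor for the selective breakdown of ER by autophagy, fell 1.76-fold (adjusted p = 5.30e-05). 39.8% of its exon bases are shared with another annotated gene, so some of its reads may belong elsewhere. SEL1L3, a membrane protein, fell 1.71-fold from 227 ± 9.26 to 133 ± 4.18 CPM.

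Several of the 27 encode enzymes of lysosomes or of sugar chains. DNASE2, the acid nuclease of lysosomes, stood at 43.9, 48.2, 48.9 and 54.0 CPM and 29.6, 25.6, 28.0 and 31.2 CPM, with no overlap (log2 -0.77, SE 0.08, adjusted p = 2.67e-07). CTBS, a lysosomal chitobiase, fell 1.66-fold (adjusted p = 0.000105), with 39.1% of its exon bases shared with another gene. GCNT2, which branches poly-N-acetyllactosamine chains, fell 1.69-fold and ST6GALNAC1, which adds sialic acid to O-linked sugars, 1.64-fold (adjusted p = 5.22e-07 and 5.29e-07). ATP2C2, a calcium and manganese pump of the Golgi, fell 1.66-fold from 36.5 ± 2.56 to 22.1 ± 0.988 CPM. GALNT7, which is not among the 27, belongs to the GalNAc transferases that start O-linked chains. It fell 1.61-fold (adjusted p = 1.78e-06), one of 4 of 10 tested family members to fall, with 0 higher. That count was 2 without WT GCN2iB 3, WT GCN2iB 4, WT Vehicle 2 or WT Vehicle 3. GALNT3 of that family stood at 31.0 ± 3.09 and 30.2 ± 0.807 CPM (adjusted p = 0.795).

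Others of the 27 encode surface, adhesion and signalling proteins. Of 37 genes in a list of cell adhesion and junctions 11 fell and 1 rose (median log2 -0.06). Without WT GCN2iB 3, 4 of them fell, in a fit where 1668 of 18906 tested genes fell. CLIC4, a chloride intracellular channel protein, stood at 107, 94.4, 95.3 and 86.6 CPM and 49.5, 51.1, 50.04 and 47.6 CPM, with no overlap, and fell 1.93-fold (log2 -0.95, SE 0.08, adjusted p = 1.27e-08). F2RL1, the protease-activated receptor PAR2, stood at 41.7, 38.9, 39.9 and 41.4 CPM and 28.2, 21.7, 20.6 and 20.7 CPM (log2 -0.83, adjusted p = 4.43e-07). WT GCN2iB 1 was the highest of its group for F2RL1, still below each vehicle library. ULBP1, a ligand of the activating receptor NKG2D of natural killer cells, fell 1.95-fold from 9.79 ± 1.71 to 4.98 ± 0.508 CPM (adjusted p = 7.88e-06). AJUBA, a LIM protein of cell junctions, fell 1.80-fold and LAMA1, a chain of laminin in basement membranes, 1.82-fold (adjusted p = 3.06e-09 and 7.06e-07). ITGA5, the alpha chain of the fibronectin receptor, is not among the 27 and fell 1.63-fold (adjusted p = 2.85e-07). RASD1, a Ras-like GTPase induced by glucocorticoids, fell 1.83-fold from 5.17 ± 0.697 to 2.84 ± 0.292 CPM. CAPN5, a calcium-dependent protease, fell 1.72-fold. TMEM154, KNDC1, NME5, A2ML1, TTC39B, CEP162 and KRT6C complete the 27, each at 3.12 to 7.14 CPM under GCN2iB.

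EIF5, the factor that prompts GTP hydrolysis by eIF2 when the start codon is found, had the highest CPM of these 27 genes under vehicle, on a scale that takes no account of length. It stood at 282, 237, 252 and 248 CPM and 159.8, 135, 138 and 149 CPM, without overlap, and fell 1.75-fold (log2 -0.80, SE 0.07, adjusted p = 3.09e-08). EIF2AK4, the gene of the inhibited kinase, fell less, from 138 ± 10.2 to 112 ± 5.21 CPM (log2 -0.30, adjusted p = 0.00629). Across the 55 tested genes with eIF symbols, 15 rose and 10 fell, with no direction shared by the family.

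**Figure D2:**
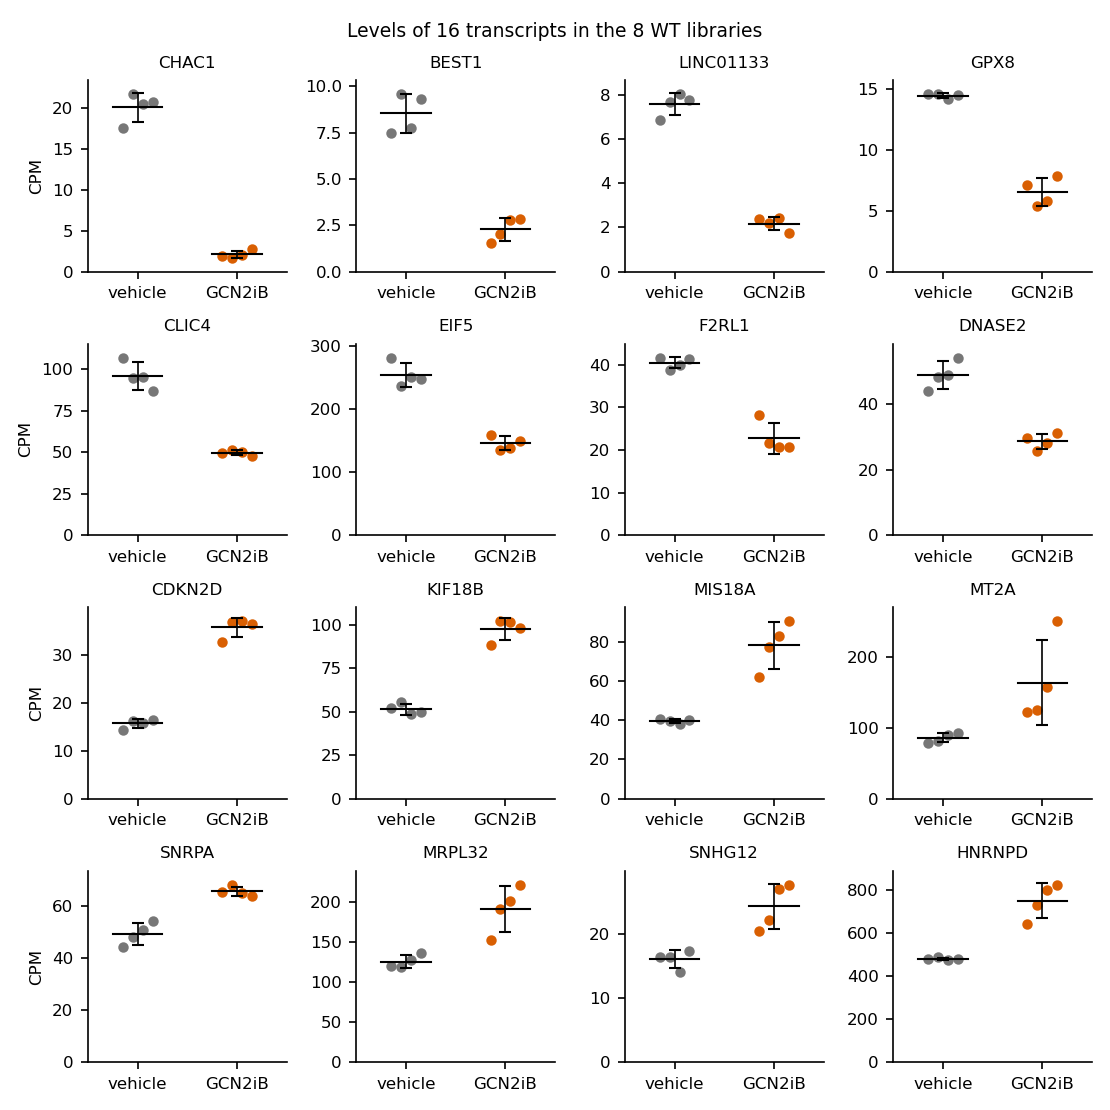
CPM of 16 transcripts in the 4 WT Vehicle and 4 WT GCN2iB libraries; each point is a library, the long line is the group mean and the bars are SD, on linear axes from 0. In the upper 8 panels all GCN2iB points lie below the vehicle points and in the lower 8 all lie above, with the widest spread for MT2A, where WT GCN2iB 4 is highest.

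Genes that carry proteins into and through the secretory pathway held many falls and few rises. Of 49 tested genes of protein entry into the ER and N-glycosylation 26 fell and 1 rose (median log2 -0.19). Among 23 genes of the translocon and its partners 13 fell and 0 rose, and among 26 of N-glycosylation 13 fell and 1 rose. SPCS3, a subunit of the signal peptidase, stood at 136, 107, 118 and 112 CPM and 84.1, 76.6, 73.9 and 76.5 CPM, with no overlap (log2 -0.60, SE 0.08, adjusted p = 7.61e-06). UAP1, which makes UDP-N-acetylglucosamine, fell 1.45-fold, SEC63, of the translocon, 1.41-fold and RPN2, of the oligosaccharyltransferase, 1.30-fold (adjusted p = 3.65e-07, 3.01e-05 and 3.15e-05). Without WT GCN2iB 3 the count of falls in this list was 17, in a fit where 1668 of 18906 tested genes fell. In the fit with GC and length trends removed 21 fell and 3 rose (median log2 -0.09).

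Transport from ER to Golgi moved the same way, with 20 of 43 genes lower and 0 higher (median log2 -0.20). SEC24D, a cargo adaptor of COPII coats, stood at 68.9, 68.5, 68.2 and 56.1 CPM and 42.6, 42.4, 44.1 and 47.9 CPM (log2 -0.56, SE 0.08, adjusted p = 3.91e-05). WT Vehicle 4 was the lowest vehicle library for SEC24D and still above each GCN2iB library. TMED2 and TMED10, cargo receptors of the p24 family, fell 1.40-fold and 1.33-fold, and MCFD2, a cargo receptor for coagulation factors, fell 1.33-fold (adjusted p = 0.000107, 8.32e-06 and 2.85e-05). With GC and length trends removed 25 of the 43 fell and 2 rose, and the median was -0.14. In antigen presentation 6 of 18 genes fell and 0 rose (median log2 -0.17). B2M stood at 229.8 ± 13.8 and 209 ± 23.4 CPM (adjusted p = 0.188, but 0.044 at log2 -0.20 without WT GCN2iB 4), and TAPBP at 66.8 ± 1.76 and 72.3 ± 6.44 CPM (adjusted p = 0.215).

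Markers of LNCaP and luminal prostate cells fell by small steps. Of 13 markers 9 fell and 0 rose (median log2 -0.22), and their summed level was 7900 to 8110 CPM under vehicle and 6960 to 7070 CPM under GCN2iB. KLK3, which encodes prostate-specific antigen, stood at 1680.2, 1747, 1711 and 1886 CPM and 1469, 1456, 1532 and 1561 CPM, with no overlap (log2 -0.22, SE 0.06, adjusted p = 0.0101). FOLH1, prostate-specific membrane antigen, fell 1.16-fold, TMPRSS2, a surface protease, 1.17-fold and KLK2, a kallikrein, 1.17-fold (adjusted p = 0.00525, 0.0101 and 0.0155). PMEPA1, an androgen-induced membrane protein, fell 1.46-fold (adjusted p = 3.47e-07). Some lineage factors did not pass. HOXB13 stood at 523 ± 43.2 and 513 ± 11.5 CPM (adjusted p = 0.811) and FOXA1 at 416 ± 8.65 and 436 ± 49.2 CPM (adjusted p = 0.527). Without WT Vehicle 4, 5 of the 13 fell, and the calls of KLK3, KLK2 and TMPRSS2 ended (adjusted p = 0.0558, 0.0745 and 0.0521). KLK2 also lost its call without WT GCN2iB 1 or WT GCN2iB 2 (0.0776 and 0.0631) and TMPRSS2 without WT GCN2iB 1 (0.0539).

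Transporters, peroxisomes and the proton pump held more falls than rises. Of 250 tested solute carrier genes 63 (25.2%) fell and 15 (6.00%) rose (median log2 -0.12). This family overlaps the amino acid response list. Of the 9 carriers that fell at least 1.5-fold, all but SLC33A1 and SLC31A1 are in it. In the list of zinc and other metal transporters 11 of 26 fell and 1 rose (median log2 -0.20). SLC31A1, the main copper importer, stood at 259, 236, 250.3 and 219 CPM and 164, 159, 158 and 155 CPM, without overlap (log2 -0.60, SE 0.06, adjusted p = 2.23e-07). SLC11A2, an importer of ferrous iron, fell 1.34-fold and STEAP1, of a family of metalloreductases abundant in prostate, 1.31-fold (adjusted p = 2.88e-05 and 4.08e-05). The rise in that list was SLC39A8, an importer of zinc and manganese, at 57.3 ± 2.50 and 79.7 ± 5.82 CPM (log2 0.48, adjusted p = 9.87e-06). MT2A, a metallothionein that binds zinc and copper, rose, as described with the rises.

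Of 33 genes of peroxisomes and fatty acid breakdown 15 fell and 3 rose (median log2 -0.18). CPT2, of the carnitine shuttle, fell 1.34-fold and ACADSB, a short branched-chain acyl-CoA dehydrogenase, 1.32-fold. Of 17 genes of the vacuolar proton pump, which acidifies lysosomes, 7 fell and 3 rose. ATP6V1C1 fell 1.43-fold and ATP6V1A 1.25-fold, while ATP6V1B2 rose 1.30-fold from 127 ± 1.83 to 165 ± 18.9 CPM, so subunits of 1 part of the pump went both ways. Of 41 ion channel genes 16 fell and 2 rose (median log2 -0.13, 9 lower without WT Vehicle 3). ANO10, of the anoctamins, fell 1.34-fold and STIM2, a calcium sensor of the ER, rose 1.31-fold (adjusted p = 0.000254 and 0.000107). Of 15 aldehyde dehydrogenase genes 8 fell and 1 rose, and this count was 4 or 5 in most fits that left out 1 library. ALDH18A1, of proline synthesis, stood at 225 ± 6.81 and 231 ± 7.99 CPM (adjusted p = 0.641, but 0.0282 at log2 0.11 with GC and length trends removed).

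Zinc finger genes with ZNF symbols were the family with the most falls in number. Of 457 tested members 109 (23.9%) fell and 26 (5.69%) rose, with a median log2 of -0.14. The share of falls was near that of coding genes of like length with a mean of at least 50 counts. Of those with transcripts of 2 to 4 kb 19.4% fell and 16.8% rose, and of those of 4 to 8 kb 22.6% fell and 10.5% rose. The median length of their longest transcripts was 4031 bases, against 3673 over all tested coding genes. With GC and length trends removed 87 fell and 44 rose (median log2 -0.06). Without WT Vehicle 1 or WT Vehicle 3 the falls numbered 68 and 72, in fits where 1900 of 18858 and 1762 of 18914 tested genes fell. Of 35 protocadherin genes 6 fell and 1 rose (median log2 -0.28).

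The largest rises were of unlike kinds. CDKN2D, an inhibitor of the kinases CDK4 and CDK6 (ENSG00000129355, GRCh38 chromosome 19, 10566462 to 10569059), stood at 14.4, 16.2, 15.8 and 16.4 CPM in the vehicle libraries and 32.7, 36.9, 37.0 and 36.4 CPM in the GCN2iB libraries. It rose 2.27-fold (log2 1.18, SE 0.09, adjusted p = 6.24e-09), and the 4 GCN2iB values stood well clear of the vehicle values. MIS18A, which prepares centromeres for new CENP-A (ENSG00000159055, GRCh38 chromosome 21, 32268219 to 32279069), stood at 40.6, 39.4, 38.0 and 39.9 CPM and 62.0, 77.2, 83.1 and 90.3 CPM and rose 1.98-fold (log2 0.99, SE 0.09, adjusted p = 1.06e-07). HIRIP3, a histone-binding protein, rose 1.90-fold from 101 ± 6.93 to 192 ± 19.3 CPM and CDCA4, a regulator of cell division, 1.90-fold from 38.7 ± 3.22 to 73.6 ± 7.54 CPM. ZMAT5, a protein of the minor spliceosome, rose 1.97-fold from 7.50 ± 0.284 to 14.8 ± 1.09 CPM (adjusted p = 8.63e-07).

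MT2A (ENSG00000125148, GRCh38 chromosome 16, 56608199 to 56609497) stood at 79.5, 81.8, 90.3 and 93.5 CPM under vehicle and 123, 126, 158 and 251 CPM under GCN2iB. It rose 1.91-fold (log2 0.93, SE 0.24, adjusted p = 0.0114), with WT GCN2iB 4 the highest. Metallothionein genes resemble one another, so its reads may be shared. DPM3, which anchors dolichol-phosphate mannose synthase, rose 1.93-fold (adjusted p = 0.00488). TMEM238 rose 2.17-fold (adjusted p = 0.0141, and 0.0685 at log2 1.13 when only WT libraries were fitted), SNHG9, a snoRNA host gene, 2.17-fold (adjusted p = 0.00465), and CHASERR, a noncoding RNA beside CHD2, 2.07-fold from 25.3 ± 9.16 to 52.7 ± 2.35 CPM (adjusted p = 0.00423).

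Several of the 15 largest rises are hard to assign to 1 gene. PDXP, a pyridoxal phosphatase, shares 62.6% of its exon bases with another annotated gene, SDR39U1 65.7% and NUDT3 95.9%. RN7SL1, the RNA of the signal recognition particle, has many near-identical copies, and its call (adjusted p = 0.0182) ended without WT GCN2iB 4, WT GCN2iB 3 or WT Vehicle 3 (0.0551, 0.0533 and 0.0513). UBE2S has processed copies in the genome. These 5 genes rose 2.36-fold, 2.08-fold, 2.04-fold, 2.34-fold and 2.20-fold, in that order.

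Further lists of genes that handle chromosomes held more rises than falls, and some of their members are also in the mitosis list. Of 45 genes of microtubule motors, tubulins and spindle regulators 16 rose and 4 fell (median log2 0.14). Among 22 kinesins in it 9 rose and 1 fell. KIF18B, a kinesin that trims the plus ends of spindle microtubules, stood at 52.1, 55.6, 48.5 and 49.8 CPM and 88.3, 102, 102 and 98.3 CPM (log2 0.92, SE 0.07, adjusted p = 2.77e-09). KIF18A rose 1.68-fold, KIF2C, a microtubule depolymerase of centromeres, 1.58-fold, KIF20A, a motor of cytokinesis, 1.57-fold, and TPX2, an activator of Aurora A, 1.58-fold (adjusted p = 2.45e-05, 5.17e-08, 4.85e-07 and 2.02e-07). Of 21 genes with CENP symbols, CENPW and others of them in the mitosis list, 11 rose and 1 fell, and 7 rose without WT Vehicle 3.

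Of 22 cohesin and condensin genes 8 rose and 1 fell (median log2 0.15), and 15 rose with GC and length trends removed. The 8 condensin genes held 5 of the rises. NCAPG, a condensin subunit, stood at 79.1, 73.1, 68.4 and 61.0 CPM and 105, 110.4, 107 and 109.5 CPM and rose 1.54-fold (log2 0.62, SE 0.08, adjusted p = 1.24e-05). NCAPH rose 1.29-fold and CDCA5, sororin, which protects cohesion, 1.22-fold. ESCO1, which acetylates cohesin, was the 1 fall (1.38-fold, adjusted p = 0.00121). Of 26 genes of homologous recombination and the Fanconi anemia pathway 9 rose and 0 fell (median log2 0.17). RAD54B, a motor protein of recombination, stood at 5.21, 6.63, 6.42 and 6.66 CPM and 10.03, 11.5, 12.7 and 11.5 CPM (log2 0.86, adjusted p = 1.27e-06), with 59.1% of its exon bases shared with another gene. Its relative RAD54L stood at 34.3 ± 2.37 and 35.4 ± 2.80 CPM (adjusted p = 0.715).

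Of 18 histone chaperone and chromatin assembly genes 8 rose and 1 fell (median log2 0.14). HJURP, the chaperone of CENP-A, stood at 55.9, 55.8, 54.5 and 51.5 CPM and 73.6, 79.3, 77.6 and 73.7 CPM (log2 0.48, SE 0.06, adjusted p = 3.65e-06). HMGB2, a chromatin protein with processed copies, rose 1.63-fold and ASF1B, a chaperone of new histones, 1.34-fold. Of 33 genes of DNA and histone methylation 9 rose and 6 fell. Among the rises UHRF1, which guides maintenance DNA methylation, rose 1.61-fold, DOT1L, the methylase of H3 lysine 79, 1.41-fold, EED, of Polycomb repressive complex 2, 1.35-fold and EHMT2, a methylase of H3 lysine 9, 1.30-fold. Of 52 histone genes 18 rose and 3 fell, 10 and 3 without WT GCN2iB 4 and 11 higher without WT GCN2iB 3. Histone genes are short and near-identical, and their values are uncertain.

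Of 32 genes that tag cell cycle proteins with ubiquitin 14 rose and 5 fell (median log2 0.13), with 1 lower without WT GCN2iB 2, WT GCN2iB 3, WT GCN2iB 4 or WT Vehicle 3 and 1 lower with GC and length trends removed. CDC20 and UBE2C among them are also in the mitosis list. CDC20, which switches on the anaphase-promoting complex, stood at 123, 137, 129 and 143 CPM and 231, 222, 223 and 241 CPM (log2 0.79, SE 0.07, adjusted p = 1.84e-08). UBE2C, an E2 enzyme of that complex, rose 1.61-fold, DTL, a substrate receptor of CRL4, 1.54-fold, and UBE2T, the E2 of the Fanconi pathway, 1.30-fold (adjusted p = 1.58e-06, 7.60e-07 and 0.000119). Of 10 tested MCM genes, several of them in the replication list, 6 rose and 1 fell, with MCM7, of the replicative helicase, at 1.47-fold and MCM10 at 1.21-fold.

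RNA splicing and RNA decay genes rose in large shares. Of 24 genes of small nuclear ribonucleoproteins 18 (75.0%) rose and 0 fell (median log2 0.35). SNRPA1, of the U2 particle, rose 1.48-fold from 88.7 ± 4.61 to 131 ± 10.8 CPM (adjusted p = 1.18e-05). LSM4 and LSM6, of the ring that binds U6 RNA and decaying mRNA, rose 1.46-fold and 1.53-fold. SNRPA, of the U1 particle, stood at 44.4, 48.1, 50.9 and 54.4 CPM and 65.6, 68.1, 65.1 and 64.1 CPM, with no overlap (log2 0.41, SE 0.08, adjusted p = 0.000397). Of 30 SR proteins and hnRNPs 18 rose and 3 fell (median log2 0.25). The rises were mostly hnRNPs, at 14 of 18 with 0 lower, while 4 of 12 SR genes rose and 3 fell, a difference between the 2 kinds that was not tested.

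HNRNPD, which binds AU-rich elements of mRNA (ENSG00000138668, GRCh38 chromosome 4, 82352498 to 82374503), stood at 482, 487, 474 and 481 CPM and 643, 732, 800.4 and 823 CPM (log2 0.64, SE 0.07, adjusted p = 1.07e-06). HNRNPH3 rose 1.60-fold from 105 ± 3.05 to 169 ± 13.8 CPM, HNRNPAB 1.46-fold and PTBP1, a repressor of alternative exons, 1.33-fold (adjusted p = 1.30e-07, 2.97e-06 and 5.19e-06). The median length of the longest hnRNP transcripts was 4139 bases, against 3673 over all tested coding genes, and 23 genes of the list rose and 1 fell with GC and length trends removed. Of 10 subunits of the RNA exosome 6 rose and 0 fell (median log2 0.24). EXOSC3 rose 1.65-fold from 19.6 ± 0.846 to 32.2 ± 2.87 CPM, EXOSC6 1.60-fold and EXOSC8 1.38-fold (adjusted p = 9.39e-07, 1.59e-07 and 4.72e-05). Of 17 nucleolar genes with NOP or NOL symbols 7 rose and 0 fell.

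Host genes of small nucleolar RNAs rose too. Of 25 with SNHG symbols 13 rose and 1 fell (median log2 0.43), and 13 and 1 without WT GCN2iB 4. SNHG12 stood at 16.5, 16.5, 14.1 and 17.4 CPM and 20.6, 22.2, 27.1 and 27.7 CPM, with no overlap (log2 0.60, SE 0.10, adjusted p = 0.000205). SNHG10 rose 1.56-fold and SNHG32 1.58-fold (adjusted p = 0.000328 and 0.00126). The strand setting of the counting is not given in the sources used here, so reads of genes on opposite strands may be mixed.

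Genes for mitochondrial ribosomal proteins and import held more rises than falls. Of 77 mitochondrial ribosomal protein genes 41 (53.2%) rose and 4 fell (median log2 0.27). Their summed level was 5681 to 6514 CPM under vehicle and 6952 to 7568 CPM under GCN2iB. MRPL32 stood at 120.4, 119, 127 and 136 CPM and 152, 191, 201 and 221 CPM (log2 0.61, SE 0.10, adjusted p = 0.000168). MRPL41 rose 1.52-fold (adjusted p = 0.00746), at log2 0.27 in place of 0.60 with GC and length trends removed. Of 39 genes of mitochondrial import and dynamics 17 rose and 4 fell (median log2 0.20). The 23 import genes held 13 of the rises. TOMM40, the channel of the outer membrane, rose 1.43-fold and TIMM21, of the inner membrane translocase, 1.27-fold, while HSPA9, the motor chaperone of import, fell 1.23-fold and MFN1, a fusion protein, 1.30-fold. Of 17 mitochondrial aminoacyl-tRNA synthetases, which also serve mitochondrial translation, 2 rose and 5 fell (median log2 -0.08). Without WT Vehicle 1, 10 of the 39 import and dynamics genes rose, and 27 rose with GC and length trends removed. Of 38 complex I genes 15 rose and 2 fell (median log2 0.20), with NDUFS6 at 1.46-fold (adjusted p = 0.00277). Of 13 mitochondrially encoded genes 0 rose and 3 fell, MT-CO1 among them at 5883 ± 808 and 4888 ± 232 CPM (adjusted p = 0.0104, and 0.0663 without WT Vehicle 1).

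Cytosolic ribosome, proteasome and chaperone genes followed. Of 84 cytosolic ribosomal protein genes 36 (42.9%) rose and 2 fell (median log2 0.22), and 23 rose without WT Vehicle 1. These genes have many processed copies and short transcripts, so single values are uncertain. RPS2, a protein of the small subunit, stood at 3096, 3349.9, 3321 and 3821 CPM and 4279, 4565, 5664 and 5922 CPM (adjusted p = 0.00107). Of 39 proteasome genes 16 rose and 3 fell (median log2 0.10). PSMD7, of the regulatory particle, rose 1.38-fold and PSMC3, of its ATPase ring, 1.32-fold, while PSMC4, of the same ring, fell 1.19-fold and the activator PSME4 1.31-fold. The proteasome count rested on single libraries, with 8 higher without WT GCN2iB 4, 9 without WT GCN2iB 3 and 9 without WT Vehicle 2. Of 34 cytosolic chaperone genes 13 rose and 1 fell (median log2 0.14), and 21 rose with GC and length trends removed. PFDN2, of prefoldin, rose 1.87-fold, HSPA1B, an inducible HSP70 with a near-identical copy, 1.61-fold, HSF1, the heat shock factor, 1.40-fold and DNAJB1, a co-chaperone, 1.35-fold.

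**Figure D3:**
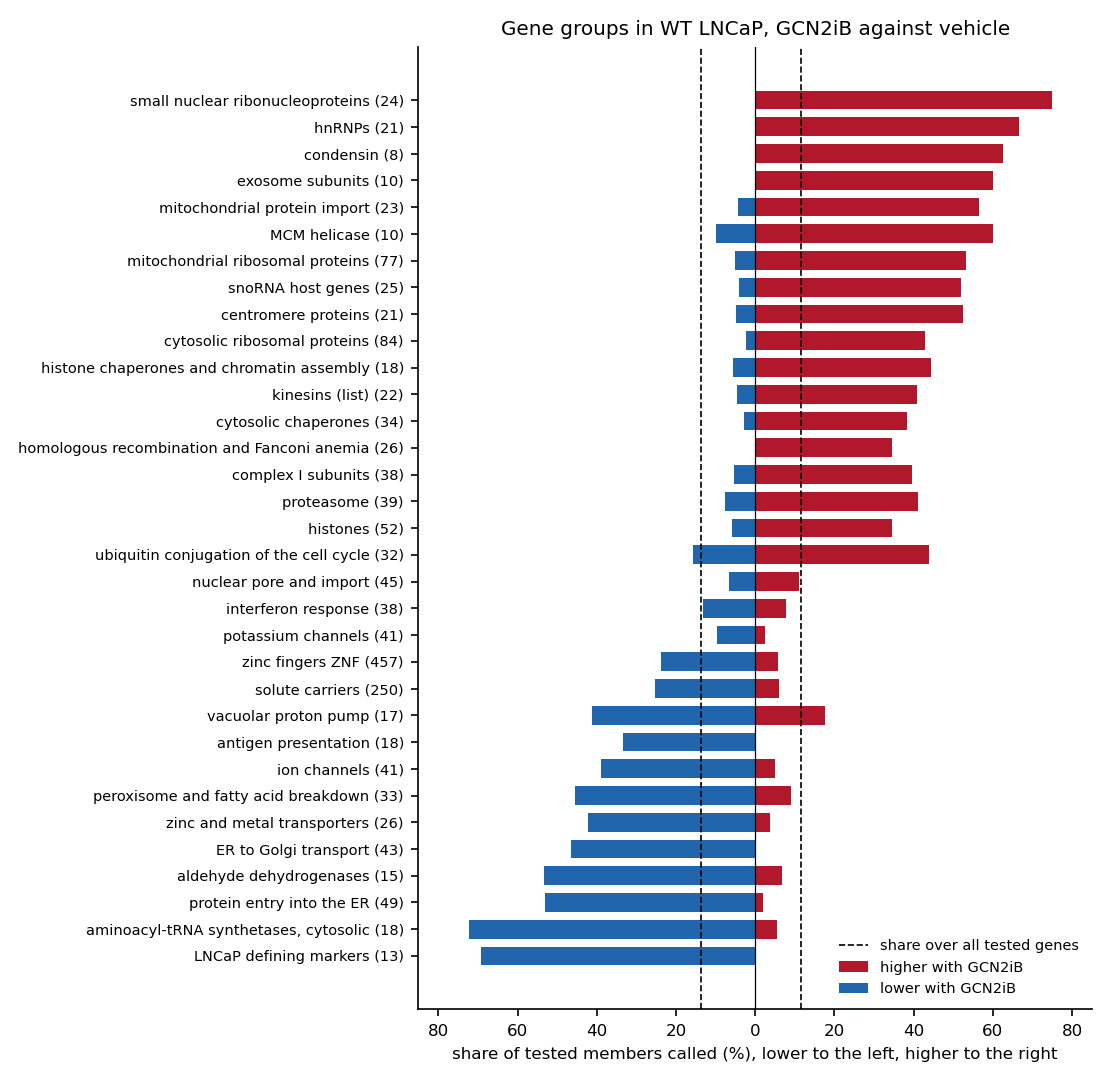
Share of tested members called higher (red, to the right) or lower (blue, to the left) with GCN2iB for 33 gene groups, with the number of tested members in parentheses; dashed lines mark the shares over all tested genes, 11.6% higher and 13.6% lower. Small nuclear ribonucleoproteins reach 75.0% higher, cytosolic aminoacyl-tRNA synthetases 72.2% lower and LNCaP defining markers 69.2% lower, and nuclear pore, interferon and potassium channel genes lie near or under the dashed lines.

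Measured by CPM, the largest falls were in abundant transcripts with modest ratios. EEF1A1, elongation factor 1 alpha with many processed copies, went from 11191 ± 364 to 9190.2 ± 503 CPM (log2 -0.28, adjusted p = 0.00034). HSP90B1 and HSPA5, ER chaperones, went from 1304 ± 87.2 to 843 ± 75.9 CPM and from 2018 ± 26.0 to 1666 ± 105 CPM. PABPC1, the cytoplasmic poly(A)-binding protein, fell 1.25-fold and PDIA3, a disulfide isomerase of the ER, 1.56-fold. Among the 8 largest rises in CPM 7 were ribosomal protein genes, among them RPS2, RPL8, RPL13A, RPL35, RPL41 and RPS18. The calls of RPL13A, RPL41 and RPS18 ended in 5, 2 and 5 of the 8 fits that left out 1 library, WT Vehicle 1 among them for each. The eighth was FASN, the fatty acid synthase, at 1998, 2239, 2129 and 2312 CPM and 2928, 3281, 3102 and 2938 CPM, without overlap (log2 0.50, SE 0.07, adjusted p = 8.34e-06).

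Early response genes were mixed. Of 27 immediate early genes 9 rose and 4 fell (median log2 0.06). JUN, of the AP-1 factor, stood at 97.3, 110.4, 110.5 and 112 CPM and 136, 161, 158 and 159.8 CPM (log2 0.52, SE 0.07, adjusted p = 1.37e-05), and CCN1, a secreted matrix protein, rose 1.38-fold. ATF3, a stress-induced factor and a target of ATF4, fell 1.38-fold (adjusted p = 1.95e-05). Among 23 secreted peptides and hormones 8 fell and 2 rose, and FGF21, ADM2 and STC2 among the falls are also in the amino acid response list. STC2, a secreted glycoprotein, fell 1.65-fold, VEGFA, the vascular growth factor, 1.36-fold, and CBLN2, a synaptic protein, rose 1.49-fold.

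Other lists lay near the background of 11.6% higher and 13.6% lower. Of 38 interferon response genes 3 rose and 5 fell, of 16 NF-kB and cytokine genes 1 and 1, of 33 nuclear receptor and coregulator genes 2 and 4, of 22 circadian clock genes 2 and 3, of 38 apoptosis regulators 7 and 4, and of 41 potassium channel genes 1 and 4. Of 45 nuclear pore and import genes 5 rose and 3 fell, but 19 rose and 1 fell with GC and length trends removed (17.6% and 14.6% of all genes in that fit), and their median turned negative with library totals (0.01 and -0.02). A count near the background does not show that these genes were unaffected.

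Transcript length and GC content moved with the treatment. Among coding genes with transcripts under 1 kb 37.3% rose and 2.75% fell (255 genes, median log2 0.23), and among those over 8 kb 6.08% rose and 15.6% fell (1036 genes, median -0.08). In the quintile of lowest GC content 8.57% rose and 23.1% fell, and in the highest 23.8% rose and 6.17% fell. The libraries of 1 group differed as well. The median log2 ratio of the shortest class to the vehicle mean was -0.14, -0.01, 0.01 and 0.16 in the vehicle libraries and 0.15, 0.17, 0.27 and 0.34 in the GCN2iB libraries, so WT Vehicle 4 reached the level of WT GCN2iB 1. How much of the rise of short-transcript families (ribosomal, mitochondrial ribosomal, small nuclear ribonucleoprotein, complex I, histone and snoRNA host genes) goes with this was not tested directly. With smooth trends on both properties removed from each library, the counts of rises in these 6 families were 49, 48, 18, 15, 15 and 13, against 36, 41, 18, 15, 18 and 13. In that fit 17.6% of all tested genes rose, against 11.6%. The families' median log2 values were then 0.24, 0.21, 0.32, 0.17, 0.17 and 0.35, against 0.22, 0.27, 0.35, 0.20, 0.32 and 0.43.

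**Figure D4:**
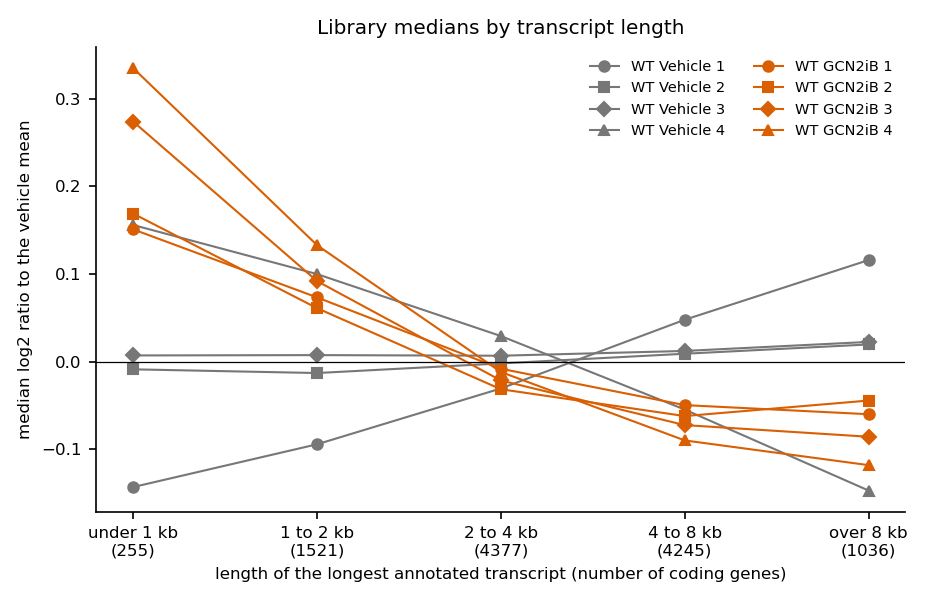
Median log2 ratio to the mean of the vehicle libraries over coding genes, by length of the longest transcript in 5 classes (number of genes in parentheses); grey lines are the 4 WT Vehicle libraries and orange lines the 4 WT GCN2iB libraries. The GCN2iB libraries run from 0.15 to 0.34 in the shortest class down to below 0 from the class of 2 to 4 kb on. WT Vehicle 4 and WT Vehicle 1 tilt in opposite ways.

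The comparison was repeated without WT GCN2iB 4, the library that lay partway toward the p53 KO cells. The fit then tested 18808 genes and called 3633 (19.3%), 1848 higher (9.83%) and 1785 lower (9.49%). Of these, 3480 were called in the same direction with all 8 libraries, 74.4% of the 4677 calls of the full fit and 95.8% of the 3633, and 0 were called in the opposite one. Of the 224 calls of at least 2-fold 155 were kept. CHAC1 was at log2 -3.40, CDKN2D at 1.19, HNRNPD at 0.61, SPCS3 at -0.57 and MT2A at 0.67, each still called. The counts of the main groups changed as follows. Small nuclear ribonucleoproteins had 15 of 24 higher, hnRNPs and SR proteins 16 of 30 higher and 1 lower, mitochondrial ribosomal proteins 35 higher and 0 lower, and cytosolic ribosomal proteins 27 higher and 0 lower. Protein entry into the ER had 23 lower and 1 higher, ER to Golgi transport 18 lower, LNCaP markers 8 lower, metal transporters 10 lower and the ZNF family 79 lower and 24 higher. The amino acid list had 50 lower and the mitosis list 37 higher. Leaving out any other single library gave 3448 to 4505 calls, so the smaller number was not particular to WT GCN2iB 4.

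CDKN1A, the p53 target p21, differed with this library. It stood at 247, 276, 277 and 298 CPM under vehicle and 483, 501, 498 and 375 CPM under GCN2iB, with WT GCN2iB 4 the lowest of its group and above each vehicle library. The rise was log2 0.76 with all libraries and 0.86 without it.

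The p53 KO cells, with their own 4 vehicle and 4 GCN2iB libraries, responded in much the same direction. CDKN1A was at 37.5 ± 3.73 CPM in p53 KO Vehicle against 275 ± 21.1 CPM in WT Vehicle. In p53 KO 3734 genes were called (20.1%), of which 2119 rose (11.4%) and 1615 fell (8.71%). Of the 4677 genes called in WT 4382 (93.7%) had the same sign in p53 KO, 2396 were called in the same direction there and 5 in the opposite one. Those 5 were MOB4, HMGB1P6, JMJD7-PLA2G4B, TEX22 and ENSG00000262766, and for none of them did the difference between the responses pass (adjusted p = 0.162 for MOB4).

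The test of the difference between the responses called 1 gene of 18549 (0.00539%), and 1754 (9.46%) had an unadjusted p under 0.05. SESN2, a stress-induced inhibitor of mTORC1 signalling (ENSG00000130766, GRCh38 chromosome 1, 28259527 to 28282491), stood at 45.8, 52.2, 52.1 and 51.4 CPM in WT Vehicle and 37.7, 41.0, 39.2 and 36.5 CPM in WT GCN2iB. Its log2 ratio was -0.39 in WT and -1.13 in p53 KO, a difference of 0.74 (adjusted p = 0.00142). This call held in each of the 16 other fits, at an adjusted p of up to 0.00738. The number of genes called depended on the fit: 38 with the DESeq2 test, 12 with GC and length trends removed, 34 without WT GCN2iB 1 and 5 without WT GCN2iB 4. By group, small nuclear ribonucleoproteins had 17 of 24 higher in p53 KO, mitochondrial ribosomal proteins 51 of 77, cytosolic ribosomal proteins 61 of 84, protein entry into the ER 14 of 49 lower and 0 higher, and LNCaP markers 6 of 13 lower, and no member of these groups differed between the genotypes by the test of the difference. PDXP, among the largest rises in WT, was at log2 1.24 in WT and 0.17 in p53 KO (difference 1.07, adjusted p = 0.324). FASN was at 0.50 and 0.10 (difference adjusted p = 0.238), BEST1 at -1.89 and -1.11 (0.238) and F2RL1 at -0.83 and -0.44 (0.349).

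**Figure D5:**
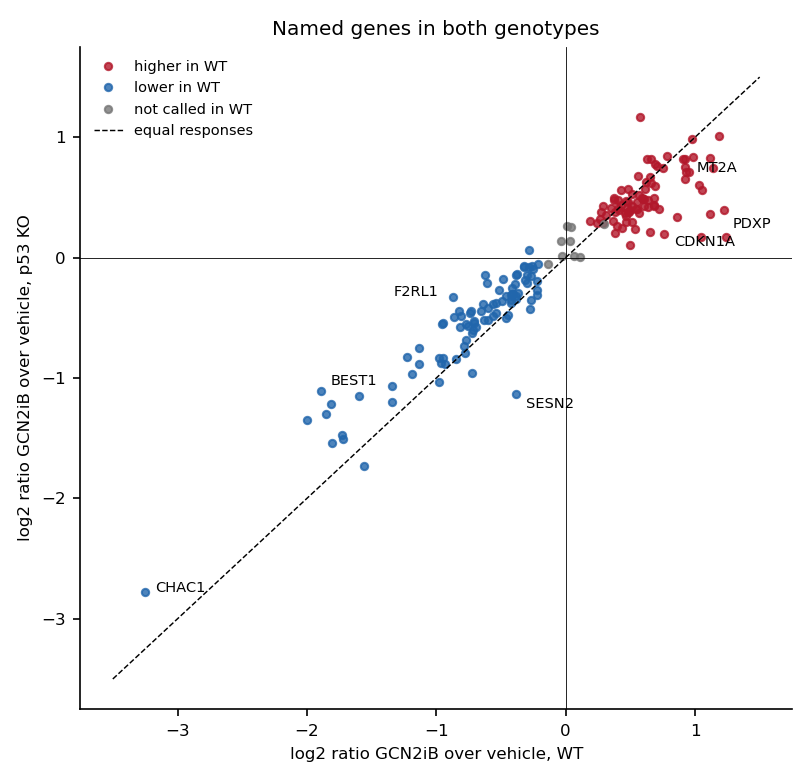
Log2 ratio of GCN2iB over vehicle in WT (horizontal) and in p53 KO (vertical) for the named genes; points are genes, coloured by their call in WT, and the dashed line marks equal responses. Most points share their sign, SESN2 lies below the line at -0.39 and -1.13, and as the genes were picked by their WT values, larger WT sizes are part of the choice.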

How the data were processed

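Total RNA of LNCaP cells was sequenced as paired ends on an Illumina NovaSeq, per the labels' protocols. The deposited table holds raw counts of reads per gene for 62754 Ensembl genes. The authors used Trim Galore, HISAT2, featureCounts and GRCh38, and DESeq2 is also named, per the submitters' processing notes; for versions, annotation release and strand setting the sources used here give nothing. Symbols matched 42343 genes and GENCODE 29 positions 58261.

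Genes were kept by edgeR's filterByExpr (18549 tested, holding at least 99.906% of each library's counts), scaled by TMM and fitted with the robust quasi-likelihood model over all 16 libraries with 1 term per group (R 4.3.3, edgeR 4.0.16), with p-values adjusted by Benjamini and Hochberg over all tested genes at 0.05. Each SE was taken as the size of the log2 ratio over the root of its F value. Totals over all 16 libraries ranged from 17418072 to 39915685 counts, and the common biological coefficient of variation was 0.0886. The fit was tested on simulated data.

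Named genes are the 15 largest rises and falls by ratio with at least 5 CPM and no overlap between the groups, the 8 largest by CPM, up to 4 with the smallest adjusted p from each list with at least 40% of members called, up to 3 from each family with at least 60% called in 1 direction, and EIF2AK4 and ATF4 as checks. Results of some named genes and lists are not reported here. A further 27 falls outside the amino acid list, 4 of them among the 15, and 27 other genes (the lineage factors, kallikreins, RAD54, GALNT, integrin, antigen presentation, SNHG and similar genes that are named beside their groups) were chosen after their values were seen, as were FGF21 and the 5 genes with opposite calls in p53 KO. All members and lists were chosen with earlier results of these data known. GC and length trends were removed per library with splines of 5 degrees of freedom, for 17678 genes. Other fits used DESeq2 (1.42.0) and its size factors, library totals, limma voom (3.58.1), other count filters, WT libraries only, a replicate block, and each WT library left out.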

Additional observations from a re-analysis of the deposited data

Results flagged for a closer look

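In groups of 4 libraries, a library was singled out when its gap to the nearest other was too large a share of the group's range by Dixon's test, a rule that chance meets in about 1 of 20 groups. Of 360 such groups over 180 named genes 27 met it, 11 through WT Vehicle 1, 7 through WT GCN2iB 1, 3 each through WT Vehicle 2 and WT Vehicle 4, 2 through WT GCN2iB 4 and 1 through WT Vehicle 3.

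WT Vehicle 1, the smallest WT library, stood below the other vehicle libraries for EHMT2 (80.1 CPM), HNRNPAB (235 CPM), HSF1 (99.5 CPM), JUN (97.3 CPM), MCM7 (388 CPM), SESN2 (45.8 CPM), ALDH18A1 (214 CPM), ITGA5 (24.1 CPM) and RAD54B (5.21 CPM), and above them for CCPG1 (10.1 CPM) and PABPC1 (1960.0 CPM). For EHMT2, HNRNPAB, HSF1, JUN, MCM7 and RAD54B, which rose, the other vehicle libraries lay nearer to the GCN2iB libraries.

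WT GCN2iB 1 stood below the other GCN2iB libraries for CDKN2D (32.7 CPM), LSM6 (26.1 CPM), JUN (136 CPM) and EXOSC8 (68.7 CPM), and above them for F2RL1 (28.2 CPM), CTBS (8.47 CPM) and KRT18 (239 CPM). In each of these 7 it lay on the side of the vehicle libraries.

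WT GCN2iB 4 was low for CDKN1A (375 CPM) and ATP2C2 (20.6 CPM). WT Vehicle 2 was high for ATP2C2 (40.3 CPM) and RAD54L (37.8 CPM) and low for ATP6V1H (61.9 CPM). WT Vehicle 4 was high for RPL41 (1260.0 CPM) and RPN2 (414 CPM) and low for SEC24D (56.1 CPM), and WT Vehicle 3 was low for SLC7A5 (16 CPM).

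SESN2 differed between the genotypes by the test of the difference itself, with a response of -0.39 in WT and -1.13 in p53 KO (difference 0.742 on the log2 scale, adjusted p = 0.00142 by edgeR).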

How the results depend on the processing

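None of the 180 named genes changed direction in any alternative fit, but the balance of rises and falls over all genes did: 2153 rose and 2524 fell, against 2341 and 2283 with DESeq2 size factors and 3107 and 2587 with GC and length trends removed. Rises outnumbered falls too with the DESeq2 test, WT libraries only, a mean of 50 counts, no count filter and in each fit without 1 library, and falls outnumbered rises with library totals, limma voom and the block. Outside the replicate block, the number of genes called in WT ran from 4260 with no count filter to 5694 with GC and length trends removed, against 4677, and from 3448 to 4505 without 1 library, with 1780 to 2306 higher and 1668 to 2199 lower; the lowest count of falls came without WT GCN2iB 3. Changes of at least 2-fold numbered 224, 116 with the DESeq2 test, 49 among genes with a mean of 50 counts, and 178 to 277 without 1 library. The response differed between WT and p53 KO for 1 gene, for 2 with DESeq2 size factors, 4 with library totals, 6 with a mean of 50 counts, 12 with GC and length trends removed, 38 with the DESeq2 test and 47 with no count filter, and for 1 to 34 without 1 library. The cause of these moves was not tested, beside the fewer genes tested under the filter. WT Vehicle 1 and WT GCN2iB 1 hold 18 of the 27 libraries that stood apart, and 4 libraries a group limit the precision of every value.

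The labels do not say whether equal replicate numbers pair the libraries, and the main fit did not pair them. The deviations of same-numbered libraries correlated at -0.0243 to 0.18, with 2 of 4 over 0.1. Libraries with different numbers correlated at -0.0993 to 0.0566, and 6 of 8 libraries correlated best with their own number. Whether the numbers mark a pairing was not tested further. With a replicate block 6139 genes were called (2849 higher and 3290 lower, 253 at least 2-fold), and 61 differed between the genotypes.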
